A study of Homo sapiens with 9 samples.

Results

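The genes of the short arm of human chromosome 9 were followed in a breast cancer cell line and in 2 clones derived from it that lack the Notch ligand JAG1. Members were the rows of the deposited count tables whose chromosome entries were all 9, whose first start lay below position 41218410 (GRCh38) and whose counts summed to at least 10 over the 9 libraries. This rule kept 241 of 56505 listed genes, 153 of them protein-coding. The arm was proposed with the clones' changes already known, so counts and medians over its members are given as a description and no test of the arm was made.

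All cells belong to the line MDA-MB-231-D3H2LN. It derives from MDA-MB-231, a triple-negative and mesenchymal-like human breast cancer line, and was kept in DMEM rich in glucose to which fetal bovine serum was added. Wild-type cells, which express JAG1, were compared with clone 1 and clone 2. For both clones Cas9 protein was transfected as a ribonucleoprotein with single-guide RNAs against 2 places in an exon of JAG1, and colonies grown from single cells were picked; the labels describe them as homozygous knockouts. Each clone is therefore a single line, and each group has 3 RNA-seq libraries that nothing in the labels ties to separate cultures. P-values therefore reflect how far the libraries of a group differ, and that variation may be technical only.

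The short arm of chromosome 9 carries several well-known groups of genes. Near its tip lie the kinase JAK2, which signals from cytokine receptors, and the immune checkpoint ligands CD274 (PD-L1) and PDCD1LG2 (PD-L2), which restrain T cells. Further in lie the type I interferon genes and the cell cycle inhibitors CDKN2A and CDKN2B with their neighbour MTAP, a region that is frequently lost in cancers. Toward the centromere lies a stretch dense in housekeeping genes, among them VCP, the segregase that extracts ubiquitinated proteins for degradation, and TLN1 (talin), which couples integrins to actin.

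Promoter sequence is shown for the 6 members whose transcripts stood furthest apart between a clone and wild type among called protein-coding genes, at most 2 per clone and direction and with at least 5 CPM in the higher group. ZDHHC21 and ADAMTSL1 stand for genes higher in clone 1, GLIS3 and VCP for genes lower there, ZDHHC21 and PSIP1 for genes higher in clone 2, and CA9 for the gene lower in clone 2. Each run is the 250 bases before the RefSeq transcript start on GRCh38.p14, read 5′ to 3′ on the gene's own strand. Capitals mark any match, on either strand, to GTGGGAA (the core bound by RBPJ, the DNA-binding partner of Notch), to TATAAA (the TATA box) or to ACGTG (the core of the hypoxia response element). The third motif was added after the values were seen. The windows are chr9:14693433-14693682 (minus strand), chr9:18473903-18474152 (plus), chr9:4298497-4298746 (minus), chr9:35072626-35072875 (minus), chr9:15510971-15511220 (minus) and chr9:35673678-35673927 (plus). The RefSeq starts of all 6 lie inside the longer gene models of the count tables. The windows of ADAMTSL1, GLIS3 and VCP lie wholly inside these models, and those of ZDHHC21, PSIP1 and CA9 in part.
ZDHHC21: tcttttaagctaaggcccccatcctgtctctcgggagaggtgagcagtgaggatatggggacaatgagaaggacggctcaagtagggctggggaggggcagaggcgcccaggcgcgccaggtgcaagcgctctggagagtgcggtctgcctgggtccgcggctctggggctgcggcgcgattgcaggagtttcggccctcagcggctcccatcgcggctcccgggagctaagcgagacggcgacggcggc
ADAMTSL1: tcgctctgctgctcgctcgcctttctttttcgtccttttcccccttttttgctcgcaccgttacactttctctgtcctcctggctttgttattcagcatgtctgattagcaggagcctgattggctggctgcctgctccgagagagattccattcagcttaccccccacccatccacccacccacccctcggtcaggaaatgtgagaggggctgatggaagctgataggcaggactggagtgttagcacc
GLIS3: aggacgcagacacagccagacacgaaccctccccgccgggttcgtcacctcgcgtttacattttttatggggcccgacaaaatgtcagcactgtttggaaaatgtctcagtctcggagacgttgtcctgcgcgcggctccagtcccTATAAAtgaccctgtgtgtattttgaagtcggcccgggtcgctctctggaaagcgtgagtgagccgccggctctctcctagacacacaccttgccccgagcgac
VCP: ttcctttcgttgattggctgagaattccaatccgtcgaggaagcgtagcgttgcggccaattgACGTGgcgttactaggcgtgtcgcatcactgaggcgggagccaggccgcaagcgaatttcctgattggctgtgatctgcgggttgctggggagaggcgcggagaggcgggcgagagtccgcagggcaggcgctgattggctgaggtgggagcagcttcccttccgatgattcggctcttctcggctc
PSIP1: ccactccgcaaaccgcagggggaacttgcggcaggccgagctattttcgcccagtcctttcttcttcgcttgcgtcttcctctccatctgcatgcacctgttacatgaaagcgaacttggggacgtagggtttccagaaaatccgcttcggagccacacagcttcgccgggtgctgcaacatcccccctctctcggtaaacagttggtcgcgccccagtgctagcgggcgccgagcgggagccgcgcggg
CA9: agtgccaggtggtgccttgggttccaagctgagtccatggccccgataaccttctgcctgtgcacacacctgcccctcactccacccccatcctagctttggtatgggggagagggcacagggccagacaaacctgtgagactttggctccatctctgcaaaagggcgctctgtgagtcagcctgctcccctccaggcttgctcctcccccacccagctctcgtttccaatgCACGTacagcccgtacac

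None of the 6 windows held the RBPJ core. GLIS3 held 1 TATA box, and VCP and CA9 each held 1 hypoxia core, in CA9 in its reverse form CACGT next to the transcript start. Promoters were matched for 108 of the 154 members that could be tested (70.1%). The RBPJ core or its reverse complement was in 5.56% of these 108 and in 5.46% of all 27305 promoters of the same length. Among the 46 matched members that were higher in clone 2 the share was 4.35%. The TATA box was in 6.48% of the member promoters and 11.1% of all promoters. The hypoxia core was in 17.6% and 18.7%. Member promoters had a median GC content of 65.0%, against 58.0% over all promoters. A match is a match of letters, not a site in use.

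Libraries held 16890890 to 22456164 counts assigned to genes. JAG1 itself stood at 161 to 246 CPM (counts scaled to the library total) in wild type, 80.8 to 110 CPM in clone 1 and 56.5 to 76.1 CPM in clone 2, so each library was on the side its label gives. A gene-level count includes reads outside the targeted exon. Vimentin, CD44, AXL, LGALS1, CAV1 and ANXA1, markers of mesenchymal breast cancer cells, summed to 4687 to 8099 CPM per library. Of 6 luminal markers, ESR1, PGR and CDH1 stayed below 1.30 CPM, while EPCAM (11.5 to 25.4 CPM), ERBB2 (75.25 to 98.5 CPM) and KRT19 (109 to 309 CPM) were present. The luminal list summed to 239.9 to 354 CPM in wild type, 208 to 314 CPM in clone 1 and 246 to 419.6 CPM in clone 2. The 4 leukocyte markers, 2 of them without a count (among them CD3E), summed to 1.70 to 4.53, 1.19 to 1.76 and 0.186 to 0.436 CPM, and the 3 endothelial markers to 2.19 to 4.44, 3.61 to 5.51 and 2.135 to 3.002 CPM. The fibroblast markers COL1A1, DCN and LUM summed to 24.1 to 54.3, 23.6 to 26.8 and 12.4 to 17.8 CPM, with LUM at a mean of 13.45, 9.83 and 0.440 CPM. Leukocyte and fibroblast sums were thus lower in every clone 2 library than in the others, and their part in the short-arm results was not tested. The mitochondrial genome took 2.82% ± 1.08 of the counts of wild type (SD, n = 3), against 3.89% ± 1.41 for clone 1 and 1.33% ± 0.530 for clone 2, so this share moved with the groups.

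Of the 675 genes listed on the arm, 334 had no count in any library and 100 had 1 to 9 counts. Starts of the 241 members ran from 14521 to 41131306. CBWD7 at 41131306 (559 counts in all) and FOXD4L6 at 41126430 (12 counts) were the last members inside the position limit, and RP11-4L24.4 at 41269916 (132 counts) was the first counted gene beyond it. At the count limit, the processed pseudogenes PRDX1P1, SNRPCP1, ARMC8P1 and VN1R48P entered with 10 counts each. MTAP, which salvages methionine, stayed out with 9 counts, as did CYP4F26P, KHSRPP1, RP11-12D24.6 and RP11-408A13.3. A filter on low counts left 154 members for testing, 125 of them protein-coding. The other 87 members, with totals of 10 to 69 counts, were not tested. Of those tested, 1 passed the filter in libraries of 1 group only.

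Short-arm genes stood higher in clone 2 than in wild type along most of the arm, while clone 1 stayed near wild type. Members took 0.558%, 0.5455% and 0.5635% of all counts in the 3 wild-type libraries. In clone 1 the shares were 0.555%, 0.535% and 0.524%, and in clone 2 they were 0.760%, 0.780% and 0.805%. Clone 2 therefore lay above every other library, and clone 1 overlapped wild type. The means were 0.556% ± 0.00919, 0.538% ± 0.0156 and 0.782% ± 0.0227 (SD, n = 3), so the clone 2 mean was 1.41 times that of wild type. Leaving the mitochondrial counts out of the total gave 0.572%, 0.560% and 0.792%, a ratio of 1.39. Leaving out the 6 members with the highest mean level gave 0.329%, 0.320% and 0.475%, a ratio of 1.44. Genes of the rest of chromosome 9 took 2.37%, 2.27% and 2.29% of the counts. In bulk RNA, more cells with a transcript and more of it per cell cannot be told apart.

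**Figure D1:**
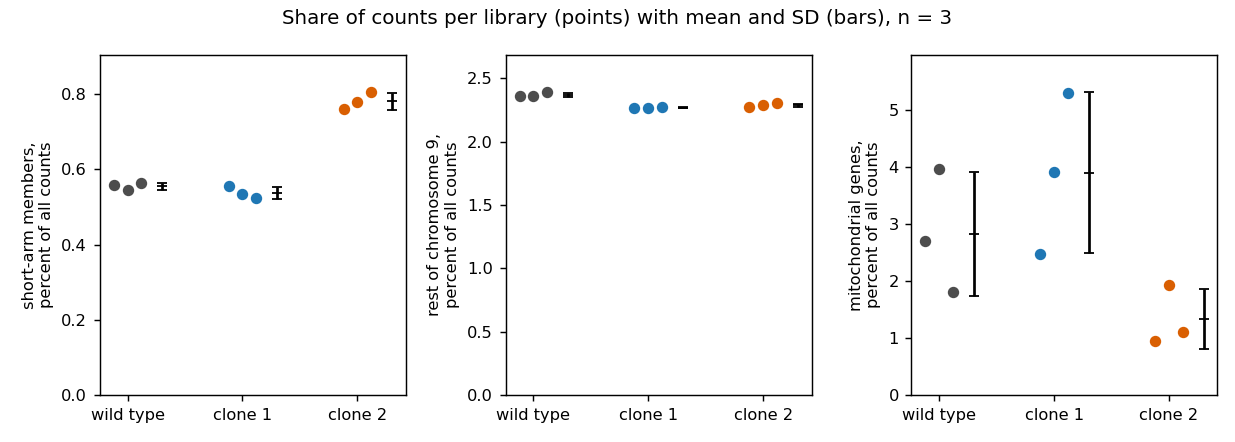
Percent of each library's counts on the 241 short-arm members, on the rest of chromosome 9 and on the mitochondrial genome; points are libraries, bars the mean and SD of 3 libraries. The 3 clone 2 libraries lie at 0.760% to 0.805% for the short arm, above all 6 others, while the rest of chromosome 9 lies between 2.26% and 2.39% in every library.

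In clone 2, 57 of the 154 tested members were called higher than in wild type and 1 lower, where called means an adjusted p under 0.05 in edgeR's quasi-likelihood test with Benjamini-Hochberg adjustment over all 16921 genes tested. Over all genes the shares were 3.21% higher and 2.75% lower. The median log2 fold change of the members was 0.61, a fold of 1.52, against 0.00 over all genes. It was positive for 131 members. The 57 higher members ran from 0.58 to 1.44 on the log2 scale with a median of 0.93, and 20 of them exceeded a 2-fold rise. The libraries of clone 2 lay wholly above those of wild type for 82 members and wholly below for 6, where the shares over all genes were 14.2% and 11.7%. Protein-coding members accounted for 55 of the higher calls, with a median of 0.66 over 125 genes. The 29 other members had 2 higher calls and a median of 0.35. By level, 3 of the 51 members with the lowest mean CPM were called higher, 18 of the next 52 and 36 of the 51 highest. The 490 tested genes of the rest of chromosome 9 had a median of -0.02, with 6 called higher and 15 lower.

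The count of higher members in clone 2 was 27 without wild-type replicate 2, 39 without wild-type replicate 1 and 34 without clone 2 replicate 3, and 48 to 59 when any other library was left out. The shares of all genes called higher in the first 3 of these fits were 0.353%, 0.471% and 0.423%, against 1.43% to 4.64% in the others. Blocking on replicate number over all 9 libraries, 78 members were called higher and 2 lower, with shares over all genes of 9.03% and 6.92%. With a block and only the 6 libraries of wild type and clone 2, 81 were higher and 3 lower. The shares over all genes were then 15.4% and 11.8%.

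In clone 1, 3 of the 154 tested members were called higher than in wild type and 6 lower, with shares over all genes of 1.41% and 4.10%. The median log2 fold change was -0.11, against -0.02 over all genes and -0.10 over the rest of chromosome 9. Libraries of clone 1 lay wholly above wild type for 17 members and wholly below for 28, where the shares over all genes were 13.1% and 16.5%. Without wild-type replicate 1, 2 members were called higher and 13 lower, where the shares over all genes were 1.11% and 4.79%. Without wild-type replicate 3 the counts were 2 and 0 (0.379% and 1.19% of all genes), and without clone 1 replicate 3 they were 0 and 1 (0.236% and 0.913%). Without wild-type replicate 2 or clone 1 replicate 1 there was 1 call in each direction, and without clone 1 replicate 2 there was 1 higher and none lower. In these fits 0.531% to 0.757% of all genes were called higher and 1.35% to 1.72% lower. The 3 fits that leave out a clone 2 library gave 3 to 4 higher and 4 to 8 lower. The shares over all genes were then 1.54% to 2.51% higher and 3% to 4.83% lower. DESeq2 called 5 members higher and 9 lower, against 3.05% and 5.96% of all genes. An unadjusted p under 0.05 in edgeR was reached by 13 higher and 23 lower members, or 8.44% and 14.9% of those tested, against 7.95% and 13.9% of all genes.

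**Figure D2:**
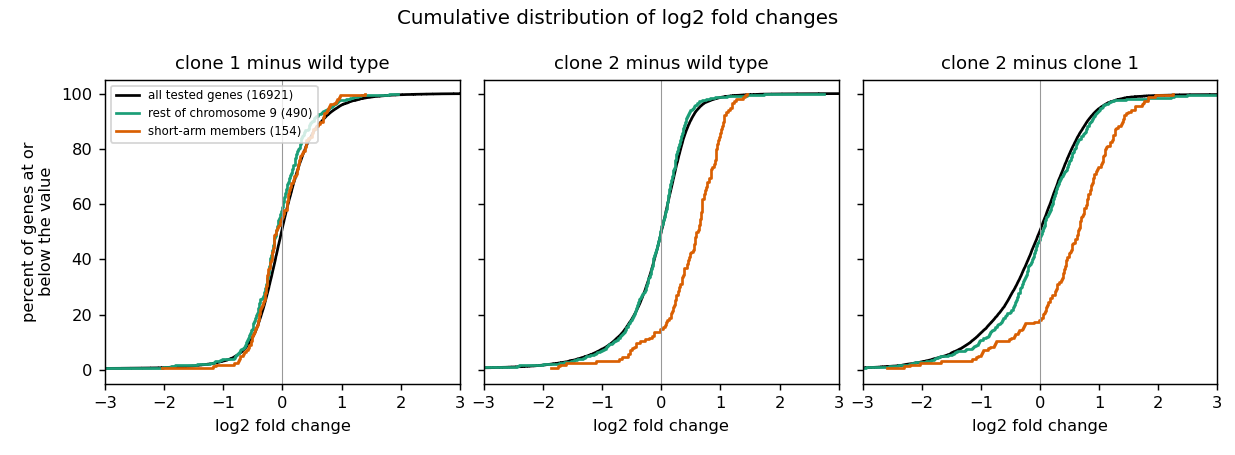
Cumulative distribution of log2 fold changes for all 16921 tested genes, the 490 of the rest of chromosome 9 and the 154 short-arm members, shown from -3 to 3 in each comparison. In both comparisons with clone 2 the short-arm curve lies to the right of the other 2, with medians of 0.61 and 0.64.

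Compared directly, clone 2 had 77 members called higher than clone 1 and 10 called lower, with shares over all genes of 19.8% and 14.1%. The median was 0.64, against -0.01 over all genes and 0.04 over the rest of chromosome 9. Libraries did not overlap for 81 higher and 14 lower members, where the shares over all genes were 25.8% and 21.6%. The clones share their wild-type controls, so their changes against wild type are given side by side below and this direct contrast is the test of the difference between them.

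The changes in clone 2 were uneven along the arm. The following stretches were set after the values were seen and are a description. Over all genes, 3.21% were called higher in clone 2 than in wild type and 2.75% lower. From the chromosome end to CCDC171 (starts 14521 to 15553086), 24 of 43 tested members were called higher in clone 2, with a median log2 fold change of 0.92. From ADAMTSL1 to FOCAD (17906563 to 20658309), none of 11 tested members was called by edgeR or DESeq2 or had an unadjusted p under 0.05, with a median of 0.03. From TUSC1 to RP11-403F21.4 (25676389 to 38433696), 33 of 87 were called higher and 1 lower, with a median of 0.58. From FAM95C to CBWD7 (38540567 to 41131306), none of 13 was called by edgeR or DESeq2, 2 were higher and 2 lower at an unadjusted p under 0.05, and the median was -0.21. The same 4 stretches had medians of 0.08, -0.16, -0.18 and 0.64 in clone 1.

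In the stretch nearest the centromere, all 13 tested members had a positive log2 fold change in clone 1, with 1 called higher. Of these 13, 6 were called lower in clone 2 than in clone 1. Over all genes, 48.5% were positive and 1.41% called higher in clone 1, and 14.1% were called lower between the clones. This stretch holds near-identical copies of genes found elsewhere on chromosome 9, such as CBWD7, FRG1HP and CNTNAP3, whose reads the counting may split. FRG1HP, a transcribed pseudogene that spans CBWD7, read 8.21, 10.3 and 8.2 CPM in wild type, 7.04, 12.4 and 9.52 CPM in clone 1 and 5.88, 5.86 and 5.17 CPM in clone 2. Every clone 2 library lay below the other 6. Its log2 fold change in clone 2 against wild type was -0.66 ± 0.24 (SE, edgeR adjusted p = 0.106), and the replicate block gave -0.65 with an edgeR adjusted p of 0.0451. Against clone 1 it was -0.78 ± 0.24 (SE, edgeR adjusted p = 0.0202), which was lost without clone 1 replicate 2, clone 1 replicate 3 or clone 2 replicate 3 (adjusted p = 0.103, 0.0556 and 0.0731). Further lower calls between the clones here were CNTNAP3, RP11-146D12.2, GLIDR, RP11-87H9.4 and CBWD7. The last 3 were lost without clone 1 replicate 1, clone 1 replicate 3, clone 2 replicate 1 or clone 2 replicate 3, where the adjusted p reached 0.137, 0.112 and 0.180. GLIDR and CBWD7 were also lost without wild-type replicate 1, and GLIDR without clone 1 replicate 2.

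**Figure D3:**
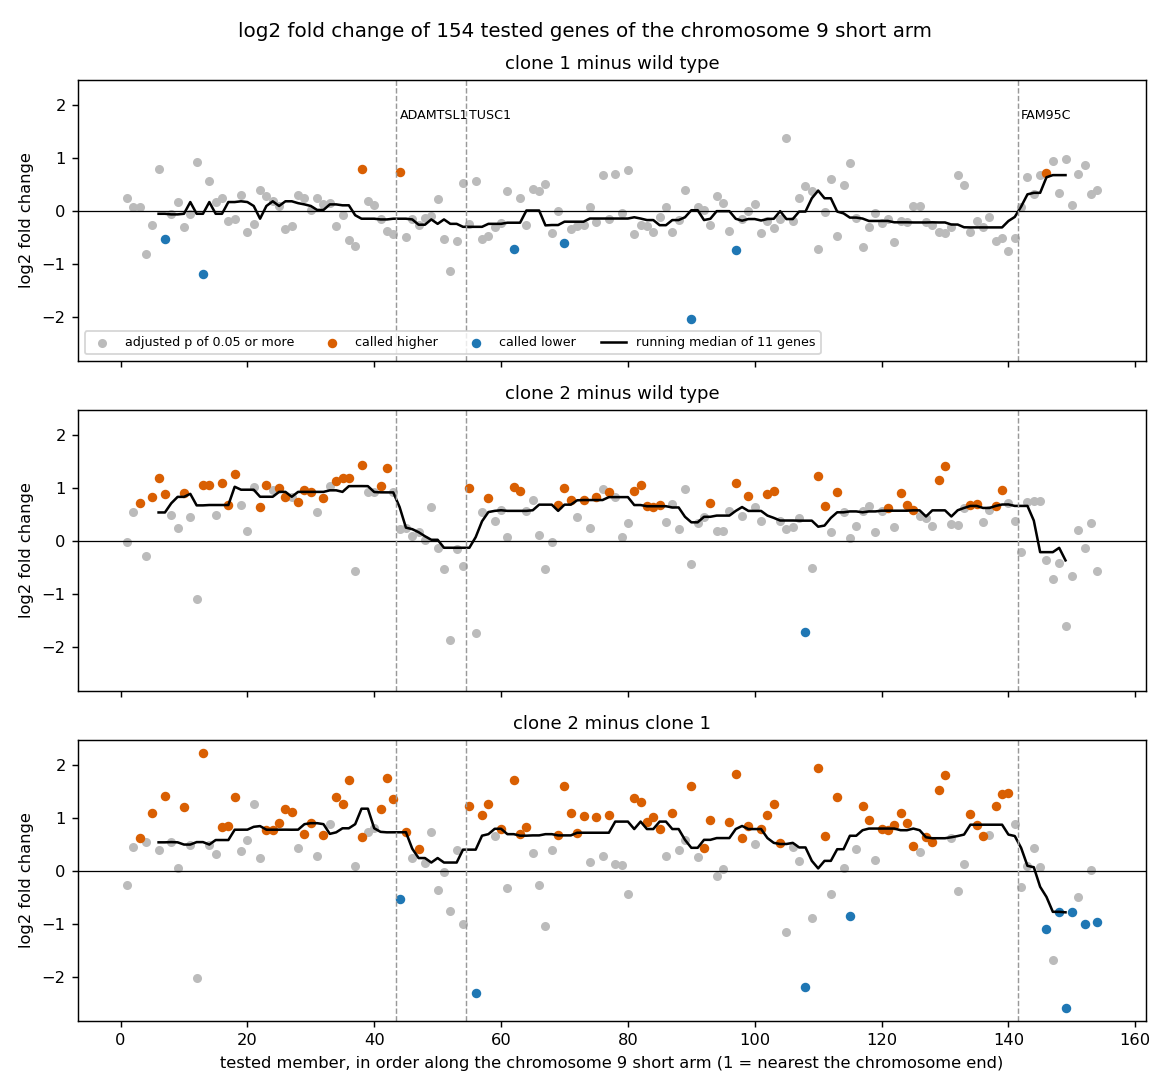
log2 fold change of the 154 tested members in their order along the arm, from the chromosome end at the left, in the 3 comparisons; orange and blue points are called higher and lower, the black line is a running median of 11 genes, and dashed lines mark the stretches that open with ADAMTSL1, TUSC1 and FAM95C. In clone 2 minus wild type the line lies above 0 up to the first dashed line, falls to about 0, and rises again after TUSC1. Medians of the windows at 0 to 5, 5 to 10 and 10 to 15 Mb were 0.69, 0.84 and 1.13.

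Windows of 20 Mb over all chromosomes, each with at least 20 tested genes, gave the scale of these medians. Among 154 windows the 2 of the short arm had the highest medians in clone 2 against wild type, 0.83 over 52 genes and 0.58 over 96 genes. The third was a window at the start of chromosome 4 with 0.29 over 114 genes, and 90% of windows lay between -0.25 and 0.18. In clone 1 the short-arm windows had medians of -0.05 and -0.16 and ranked 101 and 142 of 154. The arm was chosen for this pattern, so the ranks are a description.

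Members were then grouped by role. For scale, 37.0% of tested members were called higher in clone 2 and 0.649% lower, against 3.21% and 2.75% of all genes. In clone 1 the shares were 1.95% and 3.90% of tested members, against 1.41% and 4.10% of all genes. In clone 2, CA9 was the 1 listed member that was lower at an unadjusted p under 0.05 in edgeR or called lower by DESeq2. In clone 1, lists without a higher call had 0 to 2 members higher at an unadjusted p under 0.05 and none called higher by DESeq2.

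Among genes of cytokine signalling and immune recognition, most of the cluster of type I interferon genes and chemokines gave nothing to compare. Of 27 listed genes, 16 had under 10 counts, and the 10 interferon genes listed had 0 counts in every library. For each of these 10, 0 counts in a library allows at most 3 by counting error alone. Of 8 tested genes, 2 rose in clone 2 (CD274 and DDX58) and none fell. In clone 1 none rose and 1 fell (CNTFR). The median log2 fold change was 0.81 in clone 2 and 0.17 in clone 1.

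CD274, at chr9:5450503-5470566, read 35.5, 23.9 and 32.5 CPM in wild type, 46.1, 28.2 and 37.3 CPM in clone 1 and 77.2, 58.8 and 56.4 CPM in clone 2. Every clone 2 library lay above every wild-type and clone 1 library, and clone 1 overlapped wild type. The change in clone 2 was 1.07 ± 0.20 (SE, edgeR adjusted p = 0.00576) on the log2 scale, and in clone 1 it was 0.28 ± 0.20 (SE, edgeR adjusted p = 0.419). PDCD1LG2, the second PD-1 ligand and a near neighbour, read 5.59, 2.67 and 3.92 CPM in wild type, 5.7, 4.565 and 3.56 CPM in clone 1 and 8.66, 7.46 and 7.78 CPM in clone 2. Its clone 2 libraries also lay above all others. The difference from wild type was 0.97 ± 0.29 (SE, edgeR adjusted p = 0.0579), and 1.02 with an edgeR adjusted p of 0.00967 under the replicate block. JAK2, with 7.72, 7.955 and 7.39 CPM in wild type and 11, 15.35 and 10.7 CPM in clone 2, differed by 0.69 ± 0.25 (SE, edgeR adjusted p = 0.108), with an edgeR adjusted p of 0.0414 under the replicate block.

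DDX58, which encodes the viral RNA sensor RIG-I, read 47, 51.45 and 63.7 CPM in wild type, 60.4, 69.8 and 61.5 CPM in clone 1 and 81.65, 103 and 127 CPM in clone 2. Clone 2 lay above every library of the other groups, with a log2 fold change of 0.94 ± 0.17 (SE, edgeR adjusted p = 0.00491) against wild type. CNTFR, the receptor subunit for ciliary neurotrophic factor, was close to the detection limit, at 1.17, 1.35 and 1.56 CPM in wild type and 0.414, 0.285 and 0.2785 CPM in clone 1. Its fall in clone 1 was -2.04 ± 0.57 (SE, edgeR adjusted p = 0.047), lost in 7 of the 9 fits that leave out a library, all but those without clone 2 replicates 1 and 3, with an adjusted p of up to 0.191. IL33, an epithelial alarmin, had 0 counts in all 3 wild-type libraries, and 13 of its 15 counts came from clone 2 replicate 3.

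Among genes of the cell cycle, genome maintenance and tumour suppression, 9 could be tested, and 4 rose in clone 2 (UHRF2, TUSC1, MELK and APTX) while none fell. None was called in clone 1 by edgeR or DESeq2 or had an unadjusted p under 0.05 in edgeR. The medians were 0.57 in clone 2 and -0.14 in clone 1. CDKN2A, the gene of p16 and p14ARF, had 0 to 5 counts per library and 14 in all, below the filter. CDKN2B had 5 counts in all, and CDKN2B-AS1 and DMRTA1 had 0, so the genes around CDKN2A were at the floor in wild type and in both clones.

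UHRF2, a ubiquitin ligase that reads hydroxymethylated DNA, at chr9:6413151-6507054, read 47.9, 43.8 and 42.5 CPM in wild type, 56.25, 50.4 and 53.7 CPM in clone 1 and 89.7, 86.2 and 85.8 CPM in clone 2. The groups did not overlap, with clone 1 between the other 2. The log2 fold change was 0.96 ± 0.13 (SE, edgeR adjusted p = 0.000386) in clone 2 and 0.26 ± 0.13 (SE, edgeR adjusted p = 0.247) in clone 1. MELK, a mitotic kinase of tumour cells, averaged 103 ± 7.43 CPM (SD, n = 3) in wild type and 167 ± 8.97 CPM (SD, n = 3) in clone 2. Its change of 0.69 ± 0.13 (SE, edgeR adjusted p = 0.00803) was lost without wild-type replicate 2 (0.63, adjusted p = 0.0561). APTX, a DNA end-processing enzyme, changed by 0.69 ± 0.14 (SE, edgeR adjusted p = 0.0128), also lost without wild-type replicate 2 (0.64, adjusted p = 0.0804). TUSC1, a candidate tumour suppressor with a single-exon transcript, changed by 1.00 ± 0.17 (SE, edgeR adjusted p = 0.00411). TOPORS, a ubiquitin and SUMO ligase, differed by 0.57 ± 0.17 (SE, edgeR adjusted p = 0.0534), and by 0.56 with an edgeR adjusted p of 0.0122 under the replicate block. HAUS6 of the spindle-associated augmin complex lies between ADAMTSL1 and FOCAD and read 29.9, 31 and 43.1 CPM in wild type and 34.2, 38.9 and 37.8 CPM in clone 2.

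Genes of transcription and chromatin had the highest share of calls in clone 2 among the 6 role lists. Of 17 tested, 13 rose in clone 2 and none fell, with a median of 0.92. In clone 1 none rose and 2 fell (SMARCA2 and GLIS3), with a median of -0.20. No comparison between the lists was tested. Several genes of this list, among them SMARCA2, GLIS3, NFIB, SNAPC3 and PSIP1, lie between the chromosome end and CCDC171. That stretch also had a median of 0.92 in clone 2, and role was not separated from position on the arm.

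PSIP1 (LEDGF), a chromatin reader that tethers integration complexes of lentiviruses, at chr9:15464066-15511019, had the lowest adjusted p of the arm in clone 2 together with UHRF2. It read 35.8, 48.1 and 55.1 CPM in wild type, 36.15, 36.7 and 33.75 CPM in clone 1 and 91.05, 129 and 141.5 CPM in clone 2. The lowest clone 2 library stood well above the highest of the other 6. The log2 fold change was 1.38 ± 0.18 (SE, edgeR adjusted p = 0.000386) in clone 2 and -0.38 ± 0.18 (SE, edgeR adjusted p = 0.225) in clone 1. Its 3′ end overlaps that of SNAPC3, a subunit of the small nuclear RNA activating complex on the opposite strand, and the counting's use of strand is not given in the sources used here. SNAPC3 changed by 1.04 ± 0.18 (SE, edgeR adjusted p = 0.00329) in clone 2. POLR1E, a subunit of RNA polymerase I, read 37.7, 31.4 and 47 CPM in wild type and 88.8, 74.9 and 95 CPM in clone 2, a change of 1.16 ± 0.17 (SE, edgeR adjusted p = 0.00111). NFIB, a nuclear factor I transcription factor, averaged 16.85 ± 2.52 CPM (SD, n = 3) in wild type and 38.4 ± 11.9 CPM (SD, n = 3) in clone 2 and changed by 1.19 ± 0.23 (SE, edgeR adjusted p = 0.008165), which was lost without clone 2 replicate 3 (1.02, adjusted p = 0.0533).

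SMARCA2 (BRM), an ATPase of the SWI/SNF remodelling complexes, moved in opposite directions in the clones. It read 41.6, 43.5 and 50.7 CPM in wild type, 32.7, 28.8 and 32.9 CPM in clone 1 and 70.3, 90.8 and 91.4 CPM in clone 2. The groups did not overlap, and wild type lay between the clones. The change was -0.52 ± 0.15 (SE, edgeR adjusted p = 0.0476) in clone 1 and 0.90 ± 0.15 (SE, edgeR adjusted p = 0.00241) in clone 2. GLIS3, a Krüppel-like zinc finger factor at chr9:3824127-4348392, read 9.42, 12.3 and 11.4 CPM in wild type, 6.11, 2.76 and 5.79 CPM in clone 1 and 22.9, 21.3 and 25.15 CPM in clone 2. Again the groups did not overlap. Its changes were -1.18 ± 0.25 (SE, edgeR adjusted p = 0.01445) in clone 1 and 1.06 ± 0.24 (SE, edgeR adjusted p = 0.0186) in clone 2. The clone 2 call was lost without wild-type replicate 1, wild-type replicate 2 or clone 2 replicate 3 (adjusted p = 0.0828, 0.0557 and 0.0861).

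**Figure D4:**
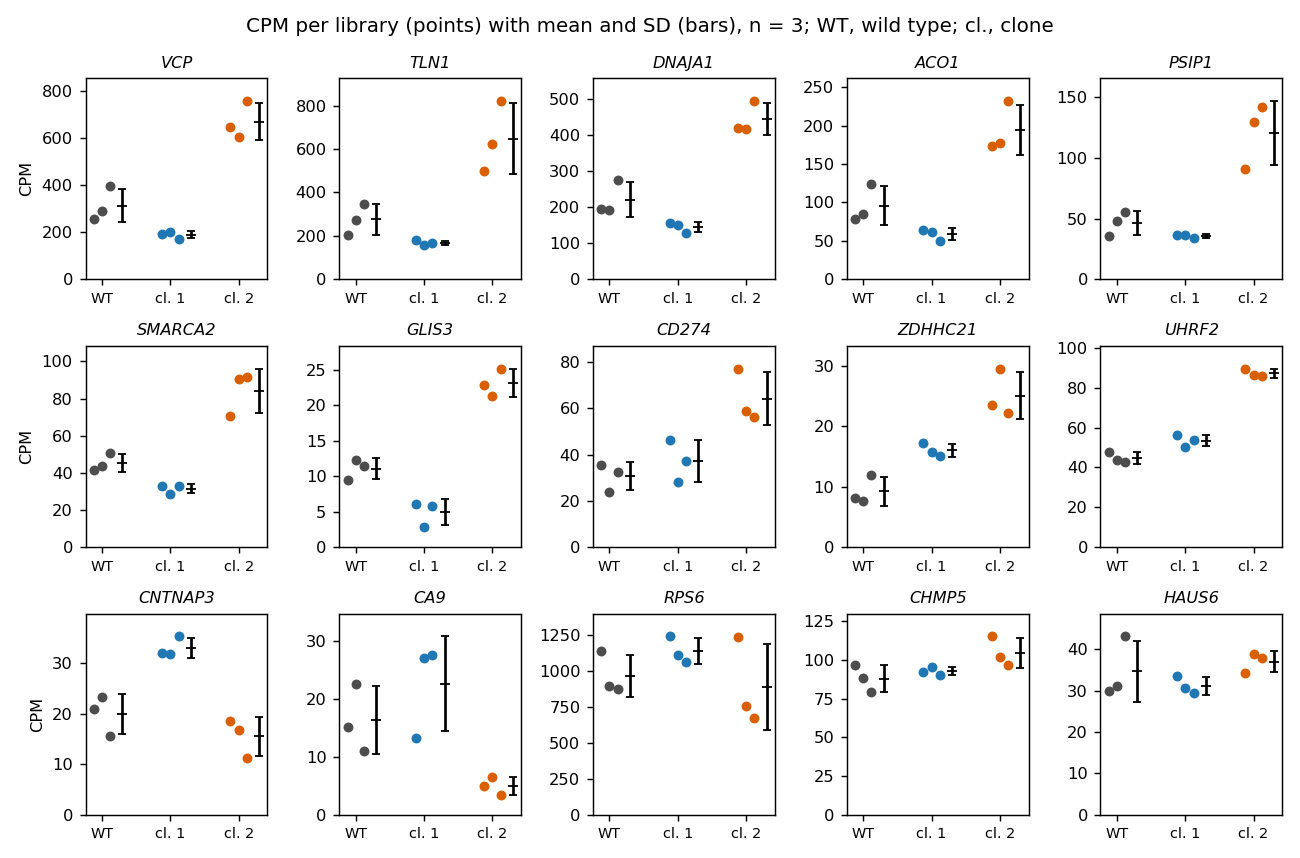
CPM per library for 15 members, with the mean and SD of 3 libraries per group beside the points; each panel has its own linear axis from 0. The first row (VCP, TLN1, DNAJA1, ACO1 and PSIP1) has clone 2 above wild type without overlap, while CA9 is lowest in clone 2 and RPS6 overlaps between the groups.

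Among genes of protein quality control, RNA processing and translation, 18 of 32 tested rose in clone 2 and none fell, with a median of 0.69. In clone 1 none rose and 2 fell (VCP and DNAJA1), with a median of -0.18. VCP, at chr9:35056064-35073249, read 256, 290.5 and 395 CPM in wild type, 192, 201.5 and 172.5 CPM in clone 1 and 649, 605.5 and 760.3 CPM in clone 2. The lowest clone 2 library stood above every wild-type library, and every clone 1 library stood below. Its log2 fold change was 1.10 ± 0.18 (SE, edgeR adjusted p = 0.00234) in clone 2 and -0.73 ± 0.18 (SE, edgeR adjusted p = 0.0263) in clone 1. DNAJA1, a co-chaperone of HSP70, read 197, 192 and 276.5 CPM in wild type, 156, 151 and 129 CPM in clone 1 and 419.6, 418 and 496 CPM in clone 2. It followed the same order without overlap, with changes of 1.00 ± 0.17 (SE, edgeR adjusted p = 0.00309) in clone 2 and -0.61 ± 0.17 (SE, edgeR adjusted p = 0.0452) in clone 1.

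The ubiquitin-conjugating enzyme UBE2R2 and the neighbouring ubiquitin-binding protein UBAP2 rose in clone 2 by 0.95 ± 0.14 (SE) and 1.05 ± 0.16 (SE) on the log2 scale, with edgeR adjusted p of 0.00102 and 0.00144. UBE2R2 read 56.8, 66.7 and 75.3 CPM in wild type and 123, 120.5 and 141 CPM in clone 2, without overlap. RIC1, part of a complex that activates the GTPase RAB6, changed by 1.01 ± 0.15 (SE, edgeR adjusted p = 0.00123), and its partner RGP1 by 0.93 ± 0.17 (SE, edgeR adjusted p = 0.00632). RUSC2, an adaptor of vesicle traffic, changed by 0.95 ± 0.14 (SE, edgeR adjusted p = 0.00134). SMU1, a splicing factor, changed by 0.77 ± 0.13 (SE, edgeR adjusted p = 0.00364). BAG1, a nucleotide exchange factor for HSP70, changed by 0.78 ± 0.17 (SE, edgeR adjusted p = 0.01545), which was lost without wild-type replicate 1, wild-type replicate 2 or clone 2 replicate 3 (adjusted p = 0.0533, 0.107 and 0.0991).

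Some abundant members of this list were not called. RPS6, the small-subunit ribosomal protein phosphorylated by S6 kinases, had the highest level of the arm per kilobase of gene model. It read 1138, 898 and 874 CPM in wild type, 1243, 1116 and 1067 CPM in clone 1 and 1235.0, 759 and 677 CPM in clone 2. The groups overlapped, and the clone 2 difference was -0.12 ± 0.22 (SE, edgeR adjusted p = 0.773). CHMP5, an ESCRT-III protein, read 96.5, 88.3 and 79.1 CPM in wild type and 115, 102 and 96.8 CPM in clone 2 and differed by 0.25 ± 0.13 (SE, edgeR adjusted p = 0.2595). STOML2, a mitochondrial inner membrane scaffold, read 252, 173 and 200.0 CPM in wild type and 486, 234.5 and 257 CPM in clone 2, where replicate 1 stood apart from the other libraries. It was higher in clone 2 in each pair of same-numbered libraries. Its difference was 0.65 ± 0.25 (SE, edgeR adjusted p = 0.136), and 0.59 with an edgeR adjusted p of 0.00820 under the replicate block.

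Among adhesion, cytoskeleton and surface genes, 7 of 20 tested rose in clone 2 and none fell, with a median of 0.58. In clone 1, 2 rose (ADAMTSL1 and CNTNAP3) and none fell, with a median of -0.13, while DESeq2 called 3 lower. TLN1, at chr9:35696948-35732395, read 203, 275 and 348 CPM in wild type, 179, 159 and 165 CPM in clone 1 and 500.5, 621.5 and 823 CPM in clone 2. The 3 groups did not overlap. The change was 1.23 ± 0.21 (SE, edgeR adjusted p = 0.00309) in clone 2, and the clone 1 value of -0.71 ± 0.21 (SE, edgeR adjusted p = 0.0536) did not pass. That value passed under the replicate block (-0.67, edgeR adjusted p = 0.00657), in DESeq2 (adjusted p = 0.0129), with no low-count filter, with the 6 libraries alone, and in 3 of 9 fits that leave out a library (without wild-type replicate 1, clone 2 replicate 1 or clone 2 replicate 3). MPDZ, a tight-junction scaffold of many PDZ domains, read 25.7, 28.8 and 34.1 CPM in wild type, 27.9, 27.2 and 29 CPM in clone 1 and 53.6, 73.2 and 76.9 CPM in clone 2. Clone 2 lay apart from the others, with a change of 1.20 ± 0.16 (SE, edgeR adjusted p = 0.000476).

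KANK1, which links talin to microtubules at the cell cortex, changed by 0.84 ± 0.18 (SE, edgeR adjusted p = 0.015) in clone 2, which was lost without wild-type replicate 1, wild-type replicate 2 or clone 2 replicate 3 (adjusted p = 0.0738, 0.0912 and 0.0761). CLTA, a clathrin light chain whose span contains GNE, changed by 0.64 ± 0.18 (SE, edgeR adjusted p = 0.0444). This call was lost in 8 of 9 fits that leave out a library, every library but clone 2 replicate 2, with an adjusted p of up to 0.196. SHB, an adaptor of receptor tyrosine kinases, changed by 0.67 ± 0.16 (SE, edgeR adjusted p = 0.0278), which was lost without wild-type replicate 1, wild-type replicate 2, clone 1 replicate 2, clone 2 replicate 2 or clone 2 replicate 3, where the adjusted p reached 0.139. IGFBPL1, an insulin-like growth factor binding protein relative, differed by 0.73 ± 0.21 (SE, edgeR adjusted p = 0.05275), and by 0.73 with an edgeR adjusted p of 0.0112 under the replicate block. TPM2, the muscle-type beta-tropomyosin, read 29.5, 26.7 and 16.6 CPM in wild type and 10.7, 28.6 and 12.15 CPM in clone 2, which overlap, and differed by -0.50 ± 0.32 (SE, edgeR adjusted p = 0.381). Without clone 2 replicate 2 the TPM2 difference was -1.10 with an edgeR adjusted p of 0.0148, and with these 6 libraries and a replicate block it was -0.585 with an edgeR adjusted p of 0.0408.

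ADAMTSL1, a secreted relative of the ADAMTS proteases at chr9:17906563-18910950, read 30.9, 19.9 and 29.4 CPM in wild type, 43.6, 40.7 and 50.3 CPM in clone 1 and 29.75, 30.1 and 34 CPM in clone 2. Clone 1 lay above the other libraries, and clone 2 overlapped wild type. The changes were 0.75 ± 0.17 (SE, edgeR adjusted p = 0.0199) in clone 1 and 0.23 ± 0.17 (SE, edgeR adjusted p = 0.44) in clone 2. CNTNAP3, a contactin-associated surface protein, read 20.9, 23.2 and 15.6 CPM in wild type, 32, 31.8 and 35.3 CPM in clone 1 and 18.6, 16.8 and 11.2 CPM in clone 2. It was also highest in clone 1, with a change of 0.73 ± 0.20 (SE, edgeR adjusted p = 0.0405) there and -0.36 ± 0.20 (SE, edgeR adjusted p = 0.278) in clone 2. Between the clones it differed by -1.09 ± 0.20 (SE, edgeR adjusted p = 0.0008175).

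Among genes of metabolism and transport, 9 of 23 tested rose in clone 2 and 1 fell (CA9), with a median of 0.46. In clone 1, 1 rose (ZDHHC21) and 1 fell (ACO1), with a median of -0.12. ZDHHC21, a palmitoyltransferase at chr9:14611071-14693471, read 8.16, 7.57 and 12 CPM in wild type, 17.2, 15.8 and 15.15 CPM in clone 1 and 23.5, 29.6 and 22.2 CPM in clone 2. The groups did not overlap, and both clones lay above wild type. Its changes were 0.80 ± 0.20 (SE, edgeR adjusted p = 0.0299) in clone 1 and 1.44 ± 0.20 (SE, edgeR adjusted p = 0.000635) in clone 2, the highest of the called members there. It was the 1 member called in the same direction in both clones. ACO1, the cytosolic aconitase that doubles as an iron-regulatory protein, read 78.45, 84.9 and 125 CPM in wild type, 63.8, 62 and 49.7 CPM in clone 1 and 173, 178 and 233 CPM in clone 2. The groups did not overlap, and the changes were -0.71 ± 0.18 (SE, edgeR adjusted p = 0.0338) in clone 1 and 1.02 ± 0.18 (SE, edgeR adjusted p = 0.005145) in clone 2.

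CA9, the cell-surface carbonic anhydrase induced by hypoxia, was the 1 member called lower in clone 2. At chr9:35673856-35681159, it read 15.2, 22.6 and 11.1 CPM in wild type, 13.2, 27 and 27.6 CPM in clone 1 and 4.95, 6.54 and 3.37 CPM in clone 2. Clone 2 lay below every other library, and clone 1 overlapped wild type. The change was -1.72 ± 0.33 (SE, edgeR adjusted p = 0.01005) in clone 2, and -1.51 with an adjusted p of 0.0721 without clone 2 replicate 3. Its span overlaps the opposite-strand gene ARHGEF39. AK3, a mitochondrial adenylate kinase, and ALDH1B1, a mitochondrial aldehyde dehydrogenase, rose in clone 2 by 0.68 ± 0.13 (SE) and 0.96 ± 0.16 (SE), with edgeR adjusted p of 0.00723 and 0.00363. NDUFB6, a complex I subunit, read 94.6, 104.5 and 72.25 CPM in wild type and 123.5, 101 and 71.5 CPM in clone 2, with overlap.

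**Figure D5:**
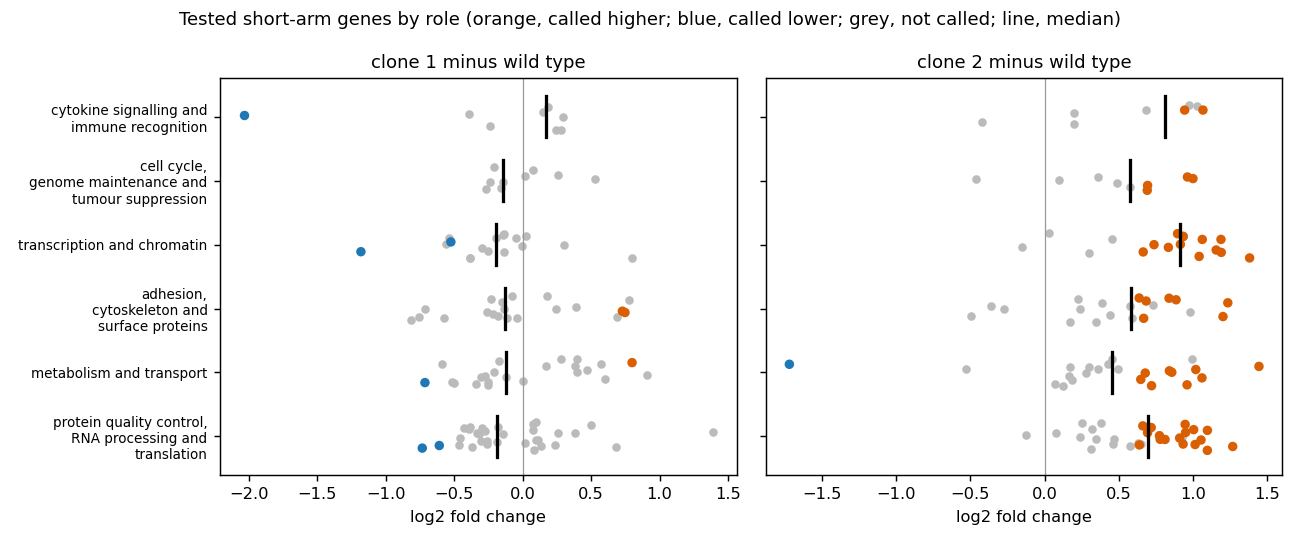
log2 fold change of the tested members of the 6 role lists in clone 1 and clone 2 against wild type; each point is a gene, orange called higher, blue called lower, grey not called, and the black line is the median of the list. The list medians lie between 0.46 and 0.92 in clone 2 and between -0.20 and 0.17 in clone 1.

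Each of the 9 clone 1 calls was lost in at least 2 of the 9 fits that leave out a library, with adjusted p of up to 0.2795 (DNAJA1 without wild-type replicate 3). Calls of ADAMTSL1 were lost without wild-type replicate 2, clone 1 replicate 1 or clone 1 replicate 3 (adjusted p = 0.0730, 0.0542 and 0.119), and those of GLIS3 without wild-type replicate 3 or clone 1 replicate 2 (0.0522 and 0.0538). VCP, ACO1, DNAJA1 and SMARCA2 were lost without wild-type replicate 3 (0.164, 0.230, 0.2795 and 0.254), wild-type replicate 2 (0.0503, 0.0535, 0.0582 and 0.103) or any clone 1 library (0.0695 to 0.209). DNAJA1 and SMARCA2 were also lost without clone 2 replicate 2 (0.0600 and 0.0736), and SMARCA2 without clone 2 replicate 3 (0.0526). ZDHHC21 and CNTNAP3 were lost without wild-type replicate 1 (0.0740 and 0.0568) or any clone 1 library (0.0791 to 0.166), ZDHHC21 also without wild-type replicate 2 (0.0960) and CNTNAP3 without wild-type replicate 3 (0.176). DNAJA1, CNTFR and SMARCA2 were also lost under RLE size factors (0.0541, 0.0507 and 0.0577).

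Between the clones, the members with the lowest adjusted p were VCP, UBE2R2, PSIP1, SMARCA2 and DNAJA1, all higher in clone 2. VCP differed by 1.83 ± 0.18 (SE, edgeR adjusted p = 9.29e-06), UBE2R2 by 1.38 ± 0.14 (SE, edgeR adjusted p = 1.15e-05) and PSIP1 by 1.76 ± 0.18 (SE, edgeR adjusted p = 1.38e-05). Each group of 3 clone 2 libraries lay wholly above clone 1. On the lower side, CA9 differed by -2.19 ± 0.33 (SE, edgeR adjusted p = 0.000326). RP11-80I3.1 and RP11-146D12.2, both at most 2.005 CPM in every library, differed by -2.30 ± 0.59 (SE, edgeR adjusted p = 0.00756) and -2.59 ± 0.65 (SE, edgeR adjusted p = 0.00671). NPR2, the receptor for C-type natriuretic peptide, differed by -0.84 ± 0.28 (SE, edgeR adjusted p = 0.0291), which was lost without clone 1 replicate 1, clone 1 replicate 3, clone 2 replicate 1 or clone 2 replicate 3 (adjusted p = 0.0727, 0.0833, 0.0732 and 0.120).

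Levels per kilobase of gene model, which allow genes to be set against each other, placed RPS6 first in every group, at 357 CPM per kb in wild type. STOML2 followed with 115, CLTA with 88.6 and DNAJA1 with 81.2. In clone 2 the order after RPS6 was STOML2 (180.4), DNAJA1 (163), CLTA (138) and VCP (123.5). In clone 1 it was STOML2 (126), NDUFB6 (84.9), CLTA (80.5) and DNAJA1 (53.2). Of the 154 tested members, 91 were called in at least 1 of the 3 comparisons and 63 in none. The share of all genes called in at least 1 comparison was not counted. The comparison between the clones alone called 87 of these members and 5733 of all 16921 genes.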

How the data were processed

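RNA was sequenced from 9 libraries, 3 each of wild type, clone 1 and clone 2. The authors deposited 2 tables of raw counts per gene, which share their wild-type columns; per the submitters' processing notes STAR, Subread, featureCounts and DESeq2 were used with GRCh38, with versions not given in the sources used here. The deposited length column gave levels per kilobase. Whether counting used strand or kept multi-mapping reads is not given in the sources used here. Of the tested members, 75 overlap another member.

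The tables were joined by gene symbol. Counts of all genes were fitted with edgeR 4.0.16 in R 4.3.3: TMM factors, a filter keeping genes that reach a minimum count of 10 (0.4985 CPM) in enough libraries, a quasi-likelihood test over 3 groups with 6 residual degrees of freedom, and Benjamini-Hochberg adjustment over 16921 genes. The common biological coefficient of variation was 20.3%. A gene was called at an adjusted p under 0.05. CPM were computed from library totals over the tested genes, multiplied by their TMM factors (0.8608 to 1.065). The script was tested on simulated data with set changes in clone 2 against wild type. It called 4.8% of 63 genes changed 1.5-fold, 65.2% of 66 changed 2-fold and 84.8% of 66 changed 4-fold. A member that was not called may therefore still differ by a fold of this size. Replicates differed by more than sampling noise (chi-square of 15.8 to 55.5 per gene). Gene types came from GENCODE v29 for 202 members and RefSeq for 6; 33 had none. Promoters came from RefSeq on GRCh38.p14.

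Replicate numbers are in the labels. Same-numbered wild-type and clone 2 libraries deviated together (correlations of 0.334 to 0.352, other pairs -0.349 to 0.004). Deviations were taken from each group's own mean, so positive same-numbered pairs by themselves push the other pairs down. Between wild type and clone 1, pairs with different numbers reached 0.302. A pairing of wild type and clone 2 by replicate number rests on the data alone, and only the replicate block takes it into account. The main fit has no block, so its counts and p-values ignore this pairing. Same-numbered libraries of wild type and clone 1 (-0.143 to 0.335) and of the clones (-0.02 to 0.287) did not deviate together throughout. The blocked value is given where it changes a named call of clone 2 against wild type. Unless 6 libraries are named, the block was fitted over all 9 libraries, so it was applied to clone 1 as well.

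Alternatives were RLE size factors, TMM factors without chromosome 9, no filter, DESeq2 1.42.0, a replicate block, the 6 libraries compared alone, and each library left out. A GC and length trend (values for 139 tested members, 90.3%), the 6 libraries with a block and the share without the 6 highest members were added after seeing the data. Named members were up to 10 called per clone and direction by adjusted p, up to 5 per direction between the clones, up to 4 per role list, the 6 with the highest mean CPM and those at the limits; 16 others, IL33 and further untested or uncalled genes were named after their values were seen. The members, role lists and stretches were chosen with earlier results of these data known. Multi-mapping copies near the centromere are uncertain. A member and a marker gene are not reported here by name.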

Additional observations from a re-analysis of the deposited data

Results flagged for a closer look

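The difference between the clones, tested directly in edgeR's quasi-likelihood test, was the reason each of the following results was singled out. Clone 2 had 77 members called higher and 10 called lower than clone 1, where 19.8% and 14.1% of all tested genes were called. Among these, 5 members had been called in opposite directions against wild type, lower in clone 1 and higher in clone 2. The share of all genes with such opposite calls was not counted. Lower calls in clone 1 made up 3.90% of tested members and 4.10% of all genes. Of 9 fits that leave out a library, the clone 1 call held in 7 for GLIS3, 4 for VCP, 4 for ACO1, 3 for DNAJA1 and 2 for SMARCA2. Clone 2 exceeded clone 1 by 1.42 on the log2 scale for SMARCA2, 2.24 for GLIS3, 1.73 for ACO1, 1.61 for DNAJA1 and 1.83 for VCP. All 3 clone 2 libraries lay above all 3 clone 1 libraries for each of the 5 genes, as for 25.8% of all genes. The 5 genes were picked by opposite calls against shared wild-type libraries. A gap in this direction therefore follows from the choice and is no further evidence. Both clones are JAG1 knockouts by their labels, and each is 1 line, so the direct contrast sets 2 knockout lines against each other. What sets them apart was not tested. Both are set against the same 3 wild-type libraries. In those comparisons, loss of JAG1 and other differences between single-cell lines cannot be told apart.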

How the results depend on the processing

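For clone 2 against wild type, leaving out 1 library gave 27 to 59 members called higher, 0 to 2 lower and a median log2 fold change of 0.53 to 0.62. For clone 1 the ranges were 0 to 4 higher, 0 to 13 lower and -0.113 to -0.0383. For clone 2 against clone 1 they were 65 to 76 higher, 4 to 12 lower and 0.53 to 0.65. With the replicate block, clone 1 had 8 members higher and 18 lower, where the shares over all genes were 4.44% and 9.28%. Clone 2 had 2 lower with the block, and no other count of members moved by over 1.5 times. Over all genes, clone 2 had 1528 higher and 1171 lower with the block, against 543 and 465. With the 6 libraries and a block, clone 2 had 3 lower (11.8% of all genes). In clone 1, RLE factors and TMM factors without chromosome 9 each left 3 lower (3.52% and 3.45% of all genes). No filter gave 6 higher there (1.44% of all genes). The 6 libraries alone and DESeq2 each gave 5 higher (3.08% and 3.05% of all genes). Medians were -0.0318 (clone 1), 0.54 (clone 2) and 0.46 (between clones) with no filter, -0.0096 and 0.46 (clone 1, between clones) with DESeq2, and -0.0727 (clone 1) with the GC and length trend removed. More genes enter without a filter and in DESeq2; the cause of the other shifts was not tested. Member shares outside the mitochondrial genome were 0.572% (wild type) and 0.560% (clone 1), and without the 6 highest members 0.329%, 0.320% and 0.475%. The median of window medians, taken in each clone 2 library against the wild-type mean and averaged over the 3, was 0.387 with windows of 10 Mb (0.247 to 0.584) and 0.558 with 5 Mb; over the fitted fold changes it was 0.58 and 0.62. Of 1371 alternative values for the 84 called results of named members, 1238 stayed called in the same direction, 133 lost the call and none reversed. Members under the filter, 87 of 241, were too shallow to test.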
